A study of Mus musculus with 24 samples.

Results

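The comparison is young short-term hematopoietic stem cells (ST-HSC) against young multipotent progenitors (MPP), each isolated by flow sorting of marrow from male C57BL/6 mice 12 weeks of age. It takes 8 of the 24 RNA-seq libraries of the series, 4 per population, chosen by the population and age in their titles, and runs across all genes. No mouse carried an allele or received an agent, per the labels. Marrow was first enriched for CD117, the receptor tyrosine kinase Kit, and both populations were then gated as lineage negative, Sca1 positive and Kit positive (LSK) cells without CD150. ST-HSC lacked CD48 as well, and MPP carried it, so the sort separates the 2 populations by CD48 alone. The other 16 libraries are LT-HSC, the long-term stem cells (LSK cells with CD150 and without CD48), of the same age, and all 3 populations of male mice aged 107 weeks. Their values stand beside the results where they bear on them. The labels count 4 mice per age and link no library number to a mouse.

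Blood stem cells sit at the head of a branching tree. LT-HSC divide rarely and can rebuild the blood for life, ST-HSC rebuild it for a limited time, and MPP divide often and have begun to express genes of the lymphoid and myeloid lineages. Stem cells keep a characteristic set of transcription factors and surface receptors, and rest in a non-dividing state held in part by inhibitors of the cyclin-dependent kinases. Entry into division brings on the genes of DNA replication, through E2F transcription factors, and later those of mitosis.

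The 8 libraries held 7480426 to 10409244 counts, and the 45S ribosomal RNA precursor gene Rn45s took 6.23% to 10.1% of them. Levels are given as CPM, counts scaled by TMM to a common library size, as mean ± SD over 4 libraries. Every change is a log2 difference, ST-HSC minus MPP, with its standard error (SE). A gene is called when its adjusted p in edgeR's quasi-likelihood test is under 0.05. Genes were counted without molecular identifiers and from libraries that do not mark strand, so overlapping genes on opposite strands share reads. In bulk samples such as these, fewer cells that express a gene and less of its RNA per cell cannot be told apart.

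The genes of the gate were examined first. Cd48 read 11.4, 7.64, 11.8 and 15.2 CPM in the ST-HSC libraries and 65.7, 67.3, 69.9 and 62.9 CPM in the MPP libraries, a change of -2.53 ± 0.32 (SE, n = 4 per group; edgeR adjusted p = 8.6e-06). Slamf1, which encodes CD150, stayed at or below 1.53 CPM in all 8 libraries, against 26.2 ± 3.85 CPM in young LT-HSC (SD, n = 4). Both genes followed the labels. Within the shared Sca1 and Kit gate the populations still differed in level: Kit reached 1441 ± 89.6 CPM in ST-HSC and 1104 ± 87.0 CPM in MPP (SD, n = 4; change 0.38, edgeR adjusted p = 0.00055). Ly6a, which encodes Sca1, read 60.2, 73.5, 50.7 and 58.3 CPM in ST-HSC and 23.3, 30.0, 24.1 and 43.3 CPM in MPP (change 1.01, edgeR adjusted p = 0.024), with no overlap. The Ly6a call was lost when MPP replicate 1, ST-HSC replicate 2 or MPP replicate 3 was left out, with an adjusted p of up to 0.080. Cd34 (667 ± 49.8 and 829 ± 8.17 CPM, SD, n = 4; adjusted p = 0.054) and Flt3 (391 ± 49.0 and 485 ± 26.4 CPM, SD, n = 4; adjusted p = 0.075), 2 surface proteins that stem cells gain as they leave the long-term state, did not pass edgeR's test although their groups did not overlap. In both populations they stood far above their LT-HSC means of 174 and 28.7 CPM.

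Across 14205 tested genes, 2929 (20.6%) were called, 1495 higher in ST-HSC (10.5%) and 1434 lower (10.1%), and the median change over all genes was 0.02. Under upper-quartile scaling the same comparison gave 1797 higher and 1215 lower. Of the 2929 calls, 936 (6.59%) changed at least 2-fold, 498 up (3.51%) and 438 down (3.08%). The 4 values of one population lay outside the range of the other for 3511 genes (24.7%), 2479 of them (17.5%) also called. Of the lists described below, those of stem cell genes had mostly members called higher in ST-HSC, and those of DNA replication, mitosis, lymphoid priming and granule genes mostly members called lower.

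**Figure D1:**
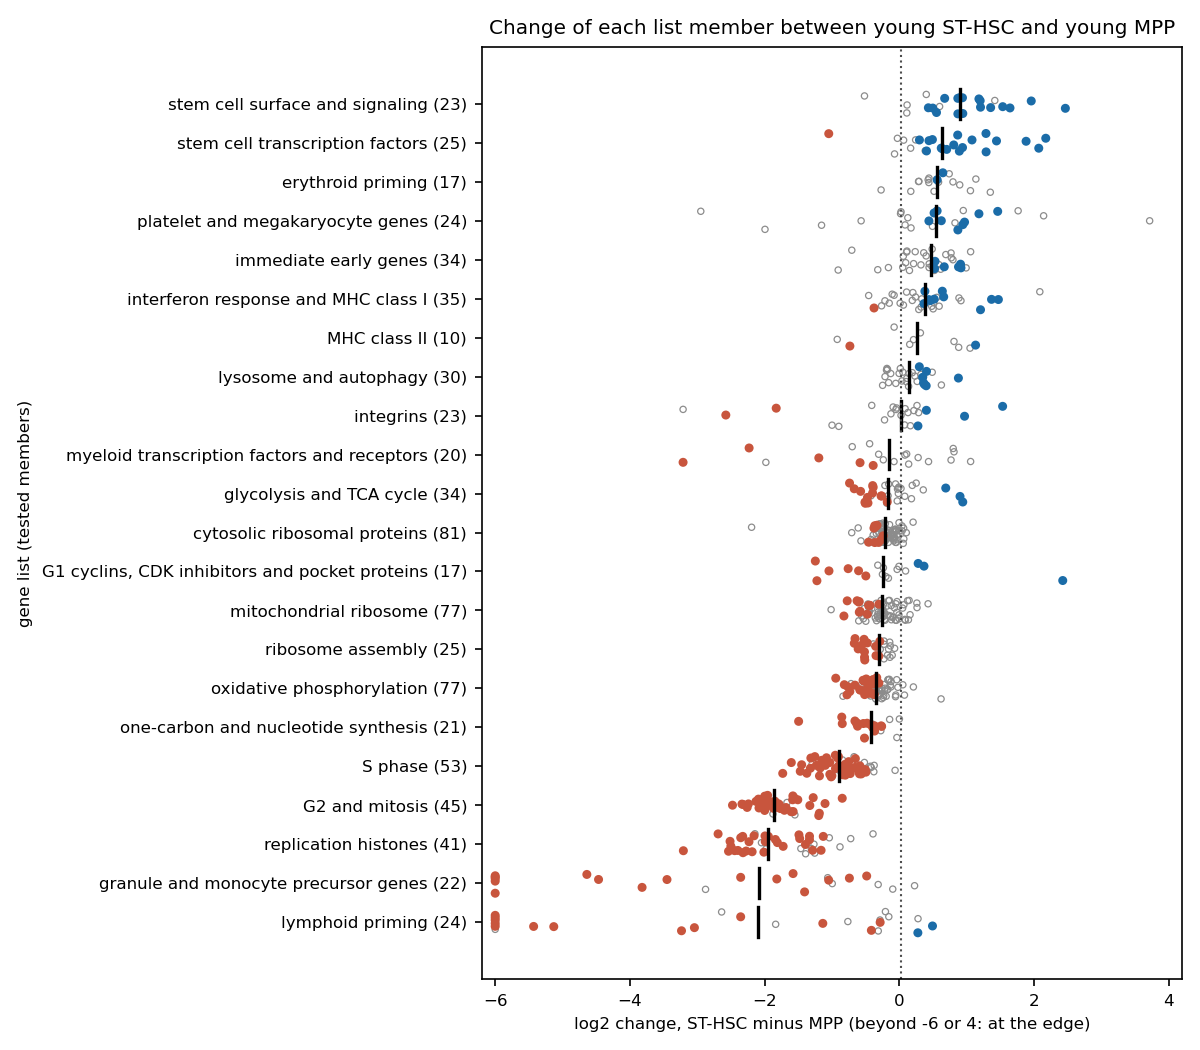
Log2 change of each tested member of 22 gene lists between young ST-HSC and young MPP (horizontal axis); filled points are genes called at an adjusted p under 0.05 (blue higher, red lower in ST-HSC), open points are not called, black bars are list medians and the dotted line is the median of all tested genes. The medians run from 0.90 for stem cell surface and signaling genes to -2.09 for lymphoid priming genes; values beyond the edge, which include genes without a count in one group, are drawn at -6.

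Among genes with a mean of at least 10 CPM and groups that did not overlap, the 12 of largest change in favor of ST-HSC were Nbea, Abcg3, Tgm2, Serpina3f, Grb10, Trpc6, Phldb2, Palld, Dlg2, Kcnd3, Dusp4 and Slfn5. Nbea, a large membrane-trafficking protein best known from neurons, read 46.3, 56.9, 51.3 and 43.2 CPM in ST-HSC and 8.73, 3.04, 4.14 and 2.41 CPM in MPP (change 3.41 ± 0.29, SE, n = 4 per group; edgeR adjusted p = 6.9e-08). Its lowest ST-HSC library stood well above its highest MPP library, and LT-HSC were higher again at 186 CPM. The gene spans chr3:55625195-56183701 (mm10). Abcg3, a rodent transporter of the ATP-binding cassette family, read 45.5, 40.2, 34.4 and 40.5 CPM in ST-HSC and 6.43, 3.56, 4.63 and 6.87 CPM in MPP (change 2.89, edgeR adjusted p = 0.00016). Tgm2, a transglutaminase that cross-links proteins, read 61.4, 112, 67.1 and 74.8 CPM against 17.3, 12.9, 9.13 and 12.8 CPM (change 2.59, edgeR adjusted p = 9.3e-05). For both, all ST-HSC libraries lay above all MPP libraries, and the LT-HSC means of 108 and 559 CPM lay above both populations.

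Grb10, an imprinted adaptor that binds receptor tyrosine kinases, read 54.9, 84.8, 57.3 and 80.8 CPM in ST-HSC and 13.2, 11.0, 6.69 and 16.6 CPM in MPP (change 2.54 ± 0.24, SE, n = 4 per group; edgeR adjusted p = 2.8e-07). Palld, an actin-binding protein, read 30.6, 35.7, 47.6 and 26.8 CPM against 8.50, 6.73, 4.50 and 8.07 CPM (change 2.34 ± 0.20, SE; edgeR adjusted p = 1.2e-08), the smallest p of the 12. Dusp4, a phosphatase that shuts off MAP kinases, read 14.0, 23.3, 20.7 and 13.6 CPM against 3.68, 5.94, 2.43 and 4.10 CPM (change 2.15, edgeR adjusted p = 1.2e-06). None of these groups overlapped, by the rule that chose the genes. The cation channel Trpc6 (change 2.47), the cortical protein Phldb2 (2.44), the scaffold Dlg2 (2.30) and the potassium channel subunit Kcnd3 (2.29) changed by a similar amount, at edgeR adjusted p-values of 7.0e-05, 6.1e-05, 1.2e-05 and 0.00089. Slfn5, an interferon-inducible Schlafen gene, reached 33.2 ± 7.30 CPM in ST-HSC and 7.96 ± 2.09 CPM in MPP (SD, n = 4; change 2.06, edgeR adjusted p = 3.1e-05). Kcnd3, Serpina3f and Slfn5 were the 3 of the 12 whose LT-HSC means (13.3, 25.0 and 25.0 CPM) lay below the ST-HSC means of 29.1, 37.9 and 33.2 CPM. Serpina3f belongs to a cluster of near-identical protease inhibitor genes among which reads could be split, and its ST-HSC values spread from 13.6 to 63.4 CPM (change 2.56, edgeR adjusted p = 0.0045).

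**Figure D2:**
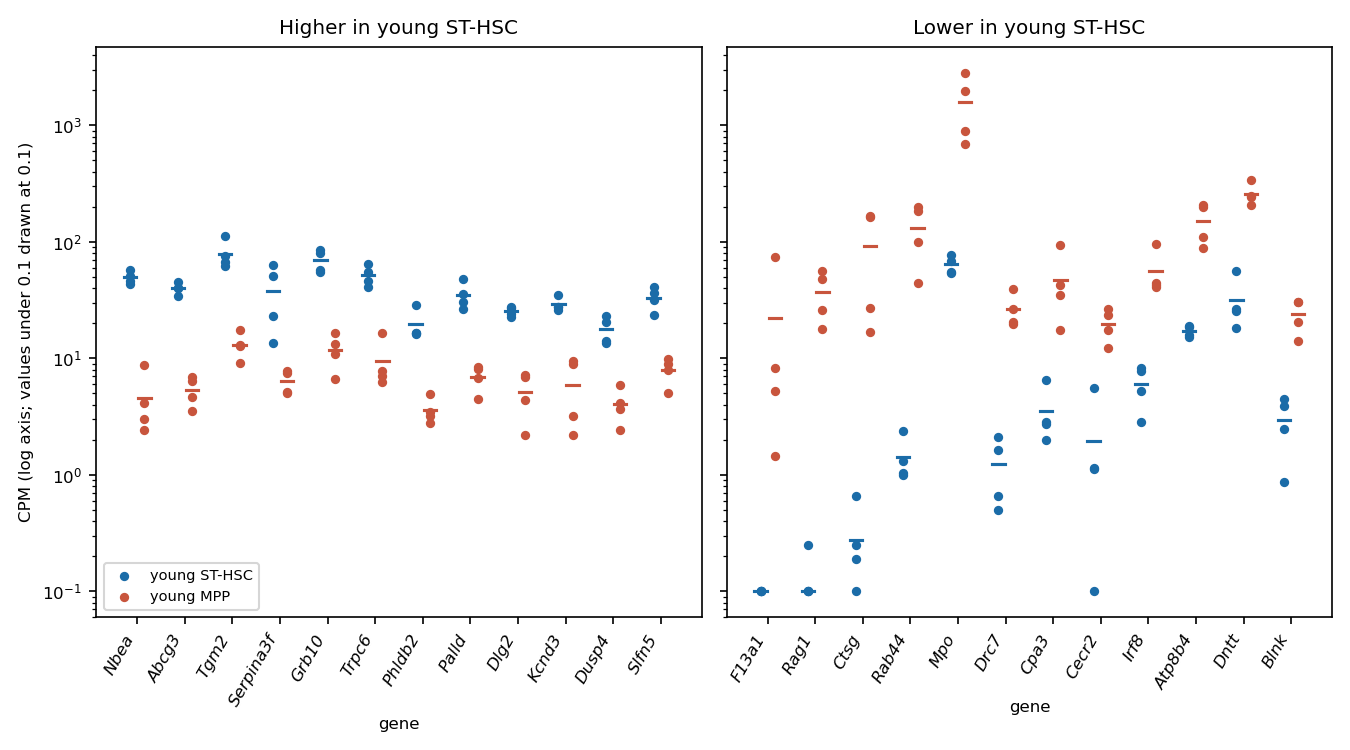
CPM (log axis) of the 12 genes of largest change in each direction, by library; blue points are the 4 young ST-HSC libraries, red points the 4 young MPP libraries, bars are means, and values under 0.1 are drawn at 0.1. No gene shown has overlapping groups, by the rule that chose it, and the genes lower in ST-HSC span a wider range, with Mpo from 685 to 2817 CPM among the MPP libraries.

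The 12 genes of largest change in favor of MPP were F13a1, Rag1, Ctsg, Rab44, Mpo, Drc7, Cpa3, Cecr2, Irf8, Atp8b4, Dntt and Blnk. Rag1, a subunit of the recombinase that assembles antigen receptor genes, had 2 counts in ST-HSC, both in replicate 1, and 1218 in MPP (25.8, 17.7, 56.2 and 47.8 CPM). That is a ratio of 664 in favor of MPP, with a 95% counting interval of 183 to 5486 that covers counting error only (edgeR adjusted p = 0.00028). Without that library the gene was at least 343-fold lower in ST-HSC. Rag2, its partner subunit and neighbor in the genome (Rag2 at chr2:101624718-101632529, Rag1 at chr2:101638282-101649501), read 2.38, 0.764, 1.14 and 1.12 CPM in ST-HSC and 12.3, 16.0, 12.3 and 10.2 CPM in MPP (change -3.23, edgeR adjusted p = 1e-05). Dntt, the terminal transferase that adds bases at antigen receptor joints, read 56.7, 18.2, 26.3 and 25.3 CPM in ST-HSC and 243, 206, 250 and 337 CPM in MPP (change -3.04 ± 0.32, SE, n = 4 per group; edgeR adjusted p = 7.8e-06). No read in the LT-HSC libraries was assigned to it. Blnk, an adaptor of B cell receptor signaling that lies next to Dntt (Blnk at chr19:40928927-40994535, Dntt at chr19:41029275-41059525), read 2.94 ± 1.63 CPM in ST-HSC and 23.8 ± 8.01 CPM in MPP (SD, n = 4; edgeR adjusted p = 0.0017). Rag2, which was named as a list member and not for its lack of overlap, also had every ST-HSC library below every MPP library.

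The granule genes varied widely among the MPP libraries. Mpo, the peroxidase of neutrophil and monocyte granules, read 55.0, 54.5, 68.4 and 77.8 CPM in ST-HSC and 2817, 685, 893 and 1977 CPM in MPP (change -4.64 ± 1.40, SE, n = 4 per group; edgeR adjusted p = 0.024). MPP replicates 1 and 4 were the high ones, and the call was lost in 5 of the 8 fits without 1 library (each ST-HSC replicate and MPP replicate 1), with an adjusted p of up to 0.066. Ctsg, the granule protease cathepsin G, showed the same 2 libraries high: 163, 16.8, 26.8 and 166 CPM in MPP and 0.250, 0.655, 0.189 and 0 CPM in ST-HSC (change -8.31 on 10 ST-HSC counts, edgeR adjusted p = 0.0085). The change was -9.16 without ST-HSC replicate 2. F13a1, the catalytic subunit of coagulation factor XIII and a gene of monocyte precursors, had no count in ST-HSC and 762 in MPP (73.6, 5.28, 1.46 and 8.31 CPM), which makes it at least 277-fold lower in ST-HSC with 3 counts over the group as the floor (edgeR adjusted p = 0.0057). Without MPP replicate 1 the MPP counts were 121 and the bound 59.8-fold. The calls of Ctsg and F13a1 were lost in limma-voom, with adjusted p-values of 0.22 and 0.24, and that of F13a1 also in a fit to the 8 libraries alone. Rab44, a large Rab GTPase of secretory granules, read 1.00, 1.31, 1.04 and 2.37 CPM in ST-HSC and 197, 44.5, 99.6 and 185 CPM in MPP (change -6.54 ± 0.90, SE, n = 4 per group; edgeR adjusted p = 5.7e-05). Irf8, the transcription factor that directs monocyte and dendritic cell fate, read 7.76, 2.84, 8.34 and 5.23 CPM in ST-HSC and 96.5, 40.7, 44.5 and 42.8 CPM in MPP (change -3.21 ± 0.36, SE, n = 4 per group; edgeR adjusted p = 2.9e-06). MPP replicates 1 and 4 were again the high ones for Rab44, and replicate 1 alone for Irf8.

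Of the remaining genes, Drc7, named for the dynein regulatory complex of cilia, read 1.23 ± 0.78 CPM in ST-HSC and 26.4 ± 8.92 CPM in MPP (SD, n = 4; edgeR adjusted p = 9.3e-06), and no count in LT-HSC. Atp8b4, a phospholipid flippase, read 18.5, 15.9, 15.3 and 18.9 CPM in ST-HSC and 208, 110, 89.2 and 200 CPM in MPP (change -3.15, edgeR adjusted p = 0.0038), again with MPP replicates 1 and 4 high. Cpa3, a carboxypeptidase of mast cells and their precursors, read 6.50, 2.84, 1.99 and 2.74 CPM in ST-HSC and 42.7, 17.6, 93.8 and 35.2 CPM in MPP (change -3.77, edgeR adjusted p = 7.2e-05). MPP replicate 3 was its highest library. That library also held the highest sum of mast cell, basophil and eosinophil markers (512 CPM), a list that includes Cpa3 itself. Cecr2, a bromodomain protein of chromatin remodeling, read 0, 5.57, 1.14 and 1.12 CPM in ST-HSC and 12.2, 26.7, 23.4 and 17.4 CPM in MPP (edgeR adjusted p = 0.0088). Its change of -3.32 became -4.67 without ST-HSC replicate 2.

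Stem cell transcription factors were higher in ST-HSC. Of 25 tested members of the list, 18 were called higher and 1 lower, against 10.5% and 10.1% of all tested genes, and the list median was 0.64 against 0.02 over all genes. Mecom, a zinc finger factor that stem cells need for self-renewal, read 184, 190, 198 and 192 CPM in ST-HSC and 73.2, 75.5, 92.6 and 71.3 CPM in MPP (change 1.29 ± 0.09, SE, n = 4 per group; edgeR adjusted p = 3.8e-10). Hlf, a bZIP factor of stem and early progenitor cells, read 1373, 1351, 1546 and 1357 CPM in ST-HSC and 607, 769, 694 and 590 CPM in MPP (change 1.08 ± 0.10, SE, n = 4 per group; edgeR adjusted p = 5.0e-08). In both genes the ST-HSC values were tight and nowhere near the MPP range. Mllt3, a chromatin reader that helps to maintain stem cells (125 ± 13.9 and 51.3 ± 6.43 CPM, SD, n = 4), and Prdm16, a relative of Mecom (93.9 ± 12.4 and 34.5 ± 3.78 CPM, SD, n = 4), changed by 1.29 and 1.45 (edgeR adjusted p = 1.1e-07 and 1.7e-07). Further called members, named here after their values were seen, were Tcf15, Hoxb5 and Ndn, factors tied to stem cell quiescence or long-term activity, with changes of 2.18, 2.07 and 1.88, and Meis1 with 0.71. The exception, Hmga2, a chromatin protein of fetal stem cells, read 30.9, 27.1, 40.7 and 20.5 CPM in ST-HSC and 51.6, 64.3, 60.2 and 70.7 CPM in MPP (change -1.05, edgeR adjusted p = 0.0072). Runx1 (-0.07), Lyl1 (-0.03), Gfi1b (0.07), Erg (0.17), Pbx3 (0.24) and Hoxa7 (0.39) did not pass the test. The LT-HSC mean exceeded the ST-HSC mean for 20 of the 25 members, Mecom among them at 342 CPM, whereas Hlf was lower in LT-HSC at 1088 CPM.

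Surface and signaling genes of stem cells followed, with 17 of 23 tested members called higher (against 10.5% of all genes), none lower, and a median of 0.90. Esam, an adhesion molecule of endothelium and stem cells, read 49.9, 61.8, 54.7 and 59.4 CPM in ST-HSC and 13.1, 14.0, 13.9 and 17.0 CPM in MPP (change 1.96 ± 0.16, SE, n = 4 per group; edgeR adjusted p = 6.6e-09). Its lowest ST-HSC library stood far above its highest MPP library. Tie1, an angiopoietin co-receptor (chr4:118471191-118490061), reached 344 ± 22.4 and 149 ± 19.5 CPM (SD, n = 4; change 1.20, edgeR adjusted p = 3.1e-07). Abcg2, the dye-exporting transporter of stem cells, reached 57.6 ± 3.83 and 31.5 ± 1.78 CPM (SD, n = 4; change 0.87, edgeR adjusted p = 9.2e-07). Procr, the endothelial protein C receptor used to isolate stem cells, was named after its values were seen. It read 47.9, 54.6, 50.1 and 38.6 CPM in ST-HSC and 11.1, 14.8, 17.4 and 17.8 CPM in MPP (change 1.65, edgeR adjusted p = 1.9e-05). The ST-HSC mean of 47.8 CPM lay close to the LT-HSC mean of 49.5 CPM. Cxcr4, the receptor that holds cells in the marrow niche, was the one member with a negative value (-0.52, edgeR adjusted p = 0.052).

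Lymphoid priming genes were lower in ST-HSC: 13 of 24 tested members were called lower and 2 higher, against 10.1% and 10.5% of all genes. The list median was -2.09. Satb1, a chromatin organizer of lymphoid cells, read 147, 161, 212 and 195 CPM in ST-HSC and 385, 363, 390 and 432 CPM in MPP (change -1.13, edgeR adjusted p = 4.6e-06), against 25.9 CPM in LT-HSC. Its means formed 3 steps over the young populations, lowest in LT-HSC and highest in MPP. Other abundant members, named after their values were seen, changed less. Notch1 (-0.41) and Ikzf1 (-0.28) were called lower, and Tcf3 (-0.28), Mef2c (-0.20) and Tcf4 (-0.15) did not pass the test. The summed level of the list was 2453 to 2730 CPM in ST-HSC and 3567 to 3908 CPM in MPP. In limma-voom the list median was -1.77. Genes of the B lineage had few counts or none in ST-HSC, and the following were named after their values were seen. Ebf1, the factor that commits cells to the B lineage, had 1 count in ST-HSC and 595 in MPP (12.3, 19.4, 27.8 and 13.6 CPM; edgeR adjusted p = 3.4e-05). Il7r, the interleukin receptor of lymphoid precursors, had 3 counts in ST-HSC and 451 in MPP (10.3, 16.8, 12.2 and 16.1 CPM), a ratio of 164 with a 95% counting interval of 55.7 to 797 (edgeR adjusted p = 0.0030, but 0.10 in limma-voom). Igll1, of the surrogate light chain, had none in ST-HSC and 524 in MPP (at least 190-fold lower in ST-HSC; edgeR adjusted p = 0.038, and 0.063 to 0.071 in the 8 fits without 1 library). The 2 members called higher were Bcl11a (342 ± 30.5 and 282 ± 25.9 CPM, SD, n = 4; change 0.28) and Foxo1 (49.1 ± 9.90 and 34.8 ± 3.07 CPM, SD, n = 4; change 0.49), 2 factors that act in stem cells as well as B cells, and their groups overlapped. The Bcl11a call was lost without MPP replicate 1 or ST-HSC replicate 3 (adjusted p of up to 0.079), and the Foxo1 call without ST-HSC replicate 1 or 2 or MPP replicate 1, 2 or 3 (up to 0.15).

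B and plasma cell markers moved with these genes. Their summed share of counts was 0.00184% to 0.00242% in ST-HSC and 0.00449% to 0.0341% in MPP, highest in MPP replicate 4 (exact permutation test, 2-sided p = 0.0286, which is the smallest that 4 against 4 libraries can give; adjusted over 9 marker lists 0.0857). All 8 markers had counts in MPP and 5 in ST-HSC. Among them Pax5, a factor of B cell identity named after its values were seen, reached 8.69 ± 5.77 CPM in MPP and had no count in ST-HSC (SD, n = 4). The part of such cells in the lymphoid result was not tested.

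Granule and monocyte precursor genes were lower in ST-HSC for 16 of 22 tested members, against 10.1% of all genes. None were higher, and the median was -2.09. The count was 11 without ST-HSC replicate 2 and 11 in limma-voom. The summed level of the list was 1613, 1638, 1717 and 1708 CPM in ST-HSC and 6142, 3148, 3281 and 5069 CPM in MPP. ST-HSC libraries were alike, and MPP replicates 1 and 4 stood above replicates 2 and 3. Ccl9, a chemokine of myeloid cells, read 7.63, 9.50, 10.0 and 9.09 CPM in ST-HSC and 29.3, 35.1, 31.8 and 32.2 CPM in MPP (change -1.82, edgeR adjusted p = 6.5e-05), without that split. Nkg7, of cytotoxic and other granules, reached 61.2 ± 8.91 and 162 ± 21.1 CPM (SD, n = 4; change -1.41, edgeR adjusted p = 0.00024). Cst7, a cathepsin inhibitor, reached 1.03 ± 0.55 and 11.2 ± 4.34 CPM (SD, n = 4; change -3.45, edgeR adjusted p = 0.00044). The split was sharpest in 3 genes named after their values were seen. Elane, the neutrophil elastase, read 210, 0.264, 0 and 227 CPM in the MPP libraries. Ms4a3, of granulocyte-monocyte precursors, read 55.7, 0.66, 4.99 and 53.1 CPM, and the monocyte gene Ly6c2 86.1, 0.264, 0.122 and 37.1 CPM. All 3 stayed at or below 0.751 CPM in ST-HSC. Their edgeR adjusted p-values were 0.040, 0.021 and 0.019, their groups overlapped, and in limma-voom the adjusted p reached 0.82, 0.59 and 0.56. All 3 calls were lost without MPP replicate 1 or ST-HSC replicate 2 or 3, those of Elane and Ms4a3 without ST-HSC replicate 4, and that of Elane without ST-HSC replicate 1 or MPP replicate 4 (adjusted p of up to 0.096). Lyz2 (0.23), a lysozyme of mature myeloid cells, and Srgn (-0.10), the granule proteoglycan, did not pass the test.

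Myeloid transcription factors and receptors changed less as a group: 5 of 20 tested members were called lower, against 10.1% of all genes. None were called higher, and the median was -0.16. The 5 were Irf8, Csf1r, Cebpa, Il1r1 and Il6ra. Cebpa, the factor that starts granulocyte-monocyte fate, read 15.5, 19.0, 24.3 and 23.4 CPM in ST-HSC and 57.8, 32.1, 55.3 and 43.3 CPM in MPP (change -1.19, edgeR adjusted p = 0.0045), against 1.79 CPM in LT-HSC. Csf1r, the receptor of macrophage growth factor, read 3.38, 3.38, 7.01 and 6.60 CPM in ST-HSC and 43.6, 16.2, 23.6 and 12.5 CPM in MPP (change -2.23, edgeR adjusted p = 0.022, and up to 0.088 without MPP replicate 1 or ST-HSC replicate 1 or 2). No library of one population reached the other in either gene. The cytokine receptors Il1r1 (78.9 ± 15.2 and 118 ± 3.67 CPM, SD, n = 4; edgeR adjusted p = 0.0054) and Il6ra (58.3 ± 6.96 and 76.2 ± 5.29 CPM, SD, n = 4; edgeR adjusted p = 0.020) changed by -0.58 and -0.39. The Il6ra call was lost without ST-HSC replicate 4 or MPP replicate 4 (adjusted p of up to 0.083). Spi1 (-0.31), the factor PU.1 that acts across myeloid and lymphoid precursors, and Csf3r (-0.24), the receptor of granulocyte growth factor, did not pass the test.

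Few erythroid genes were called, and more of the platelet list. Of 17 tested erythroid members 2 were called, both higher in ST-HSC, close to the 10.5% of all genes, with a median of 0.56. Erythroblast markers summed to 163, 471, 193 and 86.5 CPM in ST-HSC and 151, 36.7, 198 and 40.1 CPM in MPP, with ST-HSC replicate 2 the highest, and the part of such cells in the list's values was not tested. One was Car2, a carbonic anhydrase (842, 907, 850 and 965 CPM in ST-HSC, 574, 502, 564 and 635 CPM in MPP; change 0.65, edgeR adjusted p = 7.4e-05). The other was Zfpm1, the partner of GATA factors (145 ± 23.0 and 98.5 ± 12.1 CPM, SD, n = 4; change 0.56, edgeR adjusted p = 0.00081). Tspan33 (19.3 ± 11.3 and 8.76 ± 4.41 CPM, SD, n = 4) and Blvrb (21.7 ± 11.9 and 16.0 ± 5.62 CPM, SD, n = 4), 2 genes of erythroid precursors, had edgeR adjusted p-values of 0.17 and 0.49, with ST-HSC replicate 2 high in both. Of 24 tested platelet and megakaryocyte members, 9 were called higher (against 10.5% of all genes) and none lower, with a median of 0.54. Mmrn1, which encodes a platelet granule protein, read 134, 129, 126 and 99.6 CPM in ST-HSC and 40.2, 46.1, 42.7 and 48.6 CPM in MPP (change 1.46 ± 0.13, SE, n = 4 per group; edgeR adjusted p = 2.2e-08), against 356 CPM in LT-HSC. Nfe2, a factor of platelet formation, reached 238 ± 21.3 and 166 ± 14.7 CPM (SD, n = 4; change 0.52, edgeR adjusted p = 4.8e-05). Several called members of this list (Zfpm1 and Mmrn1 among them) are also stem cell genes, and the LT-HSC mean exceeded the ST-HSC mean for 22 of the 24. Markers of mature megakaryocytes and platelets took 0.00266% to 0.00365% of counts in ST-HSC and 0.00151% to 0.00188% in MPP (exact permutation p = 0.0286, adjusted 0.0857). Pf4, a platelet chemokine, named after its values were seen, read 9.01, 7.53, 4.45 and 4.61 CPM against 1.38, 1.32, 1.58 and 1.45 CPM (edgeR adjusted p = 0.067). The part of platelet RNA in these changes was not tested.

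Genes of the cell cycle were lower in ST-HSC. Of 53 tested S phase genes, 41 were called lower in ST-HSC (against 10.1% of all genes) and none higher, with a median of -0.90. Of 45 tested genes of G2 and mitosis, 42 were called lower and none higher, with a median of -1.86, and all 45 had every ST-HSC library below every MPP library, against 12.6% of all genes. The 3 that were not called were Ccnb2, Nuf2 and Melk. In the 8 fits without 1 library the mitotic count ran from 29 to 42, lowest without ST-HSC replicate 2. The summed level of the S phase list was 4618, 3417, 2733 and 4079 CPM in ST-HSC and 6754, 7115, 7149 and 7180 CPM in MPP. That of the mitotic list was 2574, 1361, 1125 and 1972 CPM in ST-HSC and 6485, 4905, 5879 and 5732 CPM in MPP. ST-HSC replicates 1 and 4 held the higher sums and replicate 3 the lowest in both lists, and no ST-HSC library reached the MPP range. The young LT-HSC libraries held 3030 to 4618 CPM of the S phase list and 1050 to 1836 CPM of the mitotic list, so LT-HSC and ST-HSC ranges overlapped in both.

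**Figure D3:**
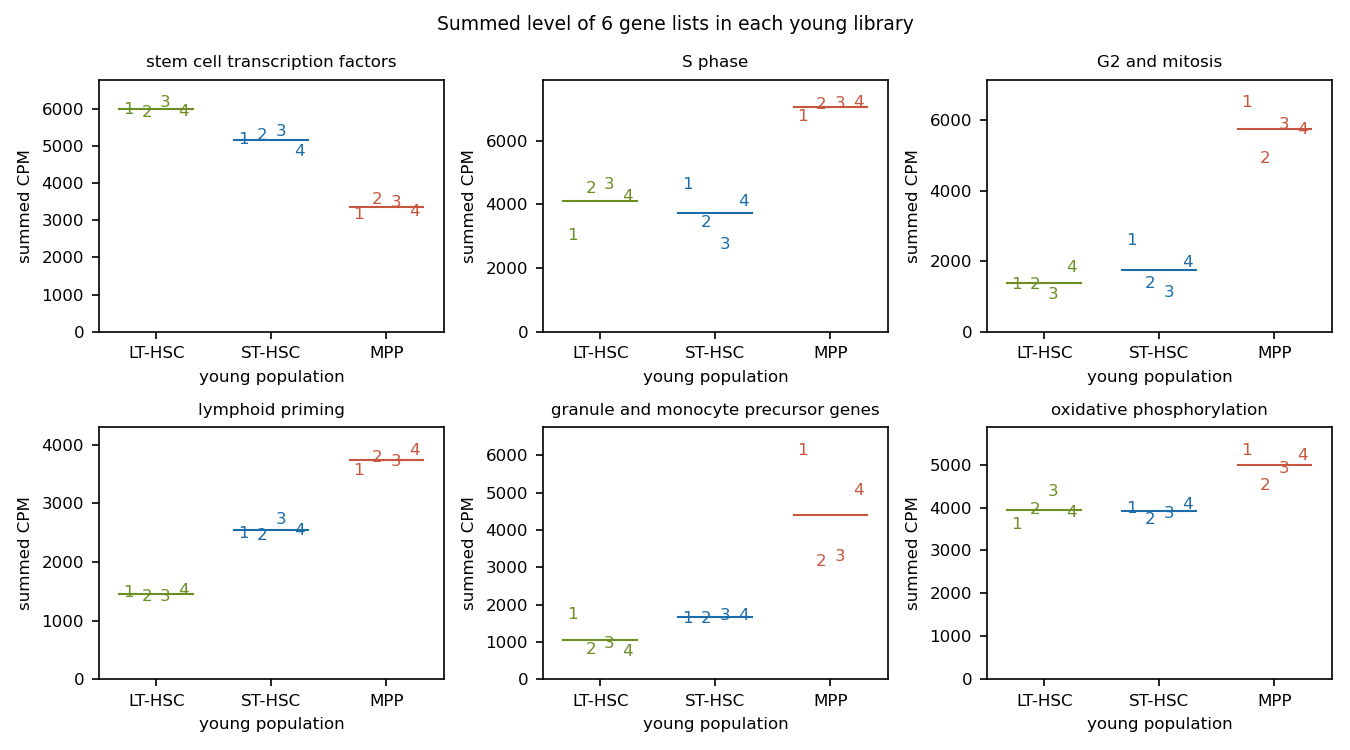
Summed CPM of 6 gene lists in each young library of LT-HSC (green), ST-HSC (blue) and MPP (red); digits mark the replicate number, lines are means of 4, and each axis starts at 0. In the mitotic panel the ST-HSC libraries sit between 1125 and 2574 CPM and the MPP libraries between 4905 and 6485 CPM; in the granule panel MPP replicates 1 and 4 lie above 2 and 3.

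Among the S phase members of smallest p, Mcm3, a subunit of the replicative helicase, read 319, 266, 216 and 303 CPM in ST-HSC and 472, 516, 503 and 479 CPM in MPP (change -0.84 ± 0.12, SE, n = 4 per group; edgeR adjusted p = 2.0e-05). Pola2, of DNA polymerase alpha, read 88.2, 68.5, 61.3 and 83.0 CPM against 136, 137, 136 and 134 CPM (change -0.85, edgeR adjusted p = 3.1e-05). The MPP values were almost constant, and the ST-HSC values varied more. Rfc5, of the clamp loader (54.8 ± 13.6 and 102 ± 7.45 CPM, SD, n = 4), and Prim2, of the primase (21.3 ± 5.30 and 45.02 ± 1.15 CPM, SD, n = 4), changed by -0.90 and -1.08 (edgeR adjusted p = 3.2e-05 and 5.4e-05). Among mitotic genes, Smc2, a condensin subunit that compacts chromosomes, read 55.2, 32.8, 26.5 and 47.7 CPM in ST-HSC and 116, 115, 125 and 104 CPM in MPP (change -1.51 ± 0.19, SE, n = 4 per group; edgeR adjusted p = 4.2e-06). Tacc3, which stabilizes spindle microtubules, read 31.5, 20.2, 14.4 and 25.9 CPM against 84.2, 69.1, 72.4 and 80.4 CPM (change -1.74, edgeR adjusted p = 0.00020). ST-HSC replicates 1 and 4 were again the higher ones in both. The spindle checkpoint gene Mad2l1 and the condensin gene Smc4 changed by -1.28 and -0.85 (edgeR adjusted p = 2.9e-05 and 9.7e-05). Mki67, which encodes the proliferation antigen Ki-67 and was named for its sequence below, read 401, 240, 264 and 329 CPM in ST-HSC and 1040.0, 816, 975 and 844 CPM in MPP (change -1.58, edgeR adjusted p = 0.0033).

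The start sites of these genes are shown because the 2 lists differ in the letters they carry. E2F factors bind sites of the form TTTCCCGC, TTTGGCGC, TTTGGCGG or TTTCGCGC, and the DREAM complex, which holds mitotic genes down in resting cells, acts at the CHR element, TTTGAA or TTCGAA, often near a CCAAT box. Those letters were searched on both strands in RefSeq windows from 250 bases before to 50 after each annotated start (GRCm38.p6, the build called mm10), without regard to overlap between matches. In all, 42 of the 53 S phase genes, 37 of the 45 mitotic genes and 10647 of the 14205 tested genes had a window. E2F letters were in 19 of 42 S phase genes (45.2%), 3 of 37 mitotic genes (8.11%) and 4.74% of all tested genes. CHR letters were in 27 of 37 mitotic genes (73.0%), 8 of 42 S phase genes (19.0%) and 16.5% of all tested genes, and CCAAT in 73.0%, 61.9% and 42.2%. A match is a description of the sequence, not evidence of binding. The choice of genes to print used the most upstream start and did not cover every chromosome. Genes of smaller p could therefore be passed over. The 150 bases before the start had to hold E2F letters and overlap no annotated exon. Among the lower S phase genes covered, the 3 of smallest p were Pola1 (polymerase alpha), Chaf1a (chromatin assembly) and Mcm6 (helicase). They are printed 5′ to 3′ on the strand of the gene, ending at the base before the start, with E2F letters of either strand in capitals.
Pola1 (chrX:93632156-93632305, minus strand): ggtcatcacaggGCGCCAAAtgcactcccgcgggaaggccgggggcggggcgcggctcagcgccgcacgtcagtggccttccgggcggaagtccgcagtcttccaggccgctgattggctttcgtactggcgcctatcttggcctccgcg
Chaf1a (chr17:56040266-56040415, plus strand): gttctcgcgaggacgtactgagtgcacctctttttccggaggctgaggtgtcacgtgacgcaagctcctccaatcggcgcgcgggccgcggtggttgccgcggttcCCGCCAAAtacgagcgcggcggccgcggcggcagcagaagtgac
Mcm6 (chr1:128359706-128359855, minus strand): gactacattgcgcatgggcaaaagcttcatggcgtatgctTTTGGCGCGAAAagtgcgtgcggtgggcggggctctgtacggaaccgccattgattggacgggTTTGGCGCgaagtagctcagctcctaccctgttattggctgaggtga

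The match begins at position -138 from the start in Pola1 and -44 in Chaf1a, and Mcm6 holds 3, at -110, -106 and -47, of which the first 2 overlap. Pola1 read 83.2, 52.0, 41.6 and 77.1 CPM in ST-HSC and 128, 142, 130 and 117 CPM in MPP (change -1.03, edgeR adjusted p = 9.3e-05). Chaf1a changed by -1.10 and Mcm6 by -0.75 (edgeR adjusted p = 0.00028 and 0.00080). By the same rule and limit on chromosomes, the mitotic genes with CHR letters were Smc2, Hmgb2 (a DNA-bending protein of dividing cells) and Mki67. CHR and CCAAT letters of either strand are in capitals.
Smc2 (chr4:52439071-52439220, plus strand): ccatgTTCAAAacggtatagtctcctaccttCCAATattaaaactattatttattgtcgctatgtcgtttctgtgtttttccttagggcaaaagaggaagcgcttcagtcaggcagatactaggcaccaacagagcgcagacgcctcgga
Hmgb2 (chr8:57511693-57511842, plus strand): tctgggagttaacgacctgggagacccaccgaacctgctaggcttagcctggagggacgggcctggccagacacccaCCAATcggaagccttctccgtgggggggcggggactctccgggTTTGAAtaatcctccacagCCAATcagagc
Mki67 (chr7:135716380-135716529, minus strand): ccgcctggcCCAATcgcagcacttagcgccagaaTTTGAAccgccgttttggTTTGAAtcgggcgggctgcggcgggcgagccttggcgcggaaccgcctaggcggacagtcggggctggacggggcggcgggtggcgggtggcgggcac

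The CHR letters begin at -145 in Smc2, -30 in Hmgb2, and -116 and -98 in Mki67, and each window also holds at least 1 CCAAT on the printed strand. Hmgb2 read 64.3, 37.7, 41.8 and 45.9 CPM in ST-HSC and 115, 82.9, 118 and 90.5 CPM in MPP (change -1.10, edgeR adjusted p = 0.00052). Of the called S phase genes with a window, 17 of 35 held E2F letters (48.6%), and of the called mitotic genes 26 of 34 held CHR letters (76.5%), close to the shares over all members.

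Replication histone genes, whose messages are made in S phase, were lower in ST-HSC for 29 of 41 tested members, against 10.1% of all genes. None were higher, and the median was -1.94. Reads of these genes can be split among near-identical copies. Most of their messages lack the poly(A) tail, and reverse transcription here used not-so-random primers, per the labels' protocols. The summed level was 414, 184, 243 and 351 CPM in ST-HSC and 1149, 538, 1320.1 and 999.6 CPM in MPP, with MPP replicate 2 lowest and still above each ST-HSC library. Hist1h2bj reached 7.01 ± 4.47 and 34.6 ± 9.20 CPM (SD, n = 4; change -2.32, edgeR adjusted p = 0.0040). The linker histone gene Hist1h1e reached 18.2 ± 5.74 and 47.6 ± 17.8 CPM (SD, n = 4; change -1.39, edgeR adjusted p = 0.0038), and its groups overlapped. The count of called members depended on single libraries: it was 15 without ST-HSC replicate 2, 16 without ST-HSC replicate 3, and 17, 18 and 19 without MPP replicates 3, 4 and 1.

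Regulators of the step from rest into division changed in both directions. Cdkn1c, the kinase inhibitor p57 that keeps stem cells at rest, read 7.63, 9.94, 7.29 and 4.86 CPM in ST-HSC and 1.15, 1.06, 1.83 and 1.45 CPM in MPP (change 2.43 ± 0.25, SE, n = 4 per group; edgeR adjusted p = 1.4e-07), against 23.0 CPM in LT-HSC. Cdk6, the kinase that drives exit from rest, read 355, 344, 299 and 380 CPM in ST-HSC and 682, 766, 698 and 692 CPM in MPP (change -1.04 ± 0.11, SE, n = 4 per group; edgeR adjusted p = 1.9e-07), against 164 CPM in LT-HSC. These 2 genes ran in opposite order over LT-HSC, ST-HSC and MPP, with no overlap between ST-HSC and MPP. Of the list of 17 G1 cyclins, kinases, inhibitors and pocket proteins, 3 were called higher (Cdkn1c, Rbl2 and Ccnd2). Another 6 were called lower (Cdkn1a, Cdkn2c, Cdk6, Rbl1, Cdk4 and E2f3), and the median was -0.23. The shares over all genes were 10.5% higher and 10.1% lower. Rbl2, the pocket protein p130 of resting cells, reached 167 ± 3.02 and 129 ± 7.31 CPM (SD, n = 4; change 0.37, edgeR adjusted p = 0.00077). Its cycling relative Rbl1 reached 105 ± 18.8 and 178 ± 24.3 CPM (SD, n = 4; change -0.76, edgeR adjusted p = 0.0023). Cdk4, partner of the D cyclins, reached 218 ± 21.5 and 331 ± 19.9 CPM (SD, n = 4; change -0.60, edgeR adjusted p = 0.0011). Of these, the call of Ccnd2, a D cyclin (change 0.28), was lost in 6 of the 8 fits without 1 library and that of Cdkn2c, an inhibitor of Cdk4 and Cdk6 (-1.22), in 5. Not every inhibitor was higher in ST-HSC: Cdkn1a, the inhibitor p21, read 5.13, 4.26, 8.62 and 7.10 CPM in ST-HSC and 13.4, 8.71, 16.7 and 21.0 CPM in MPP (change -1.25, edgeR adjusted p = 0.0019). Cdkn1b (0.09), the inhibitor p27, and Myc (-0.20) did not pass the test.

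Genes of growth metabolism were lower in ST-HSC by small amounts. Of 21 tested genes of one-carbon and nucleotide synthesis, 16 were called lower (against 10.1% of all genes) and none higher, with a median of -0.42. Psat1, of serine synthesis, read 95.3, 57.7, 65.4 and 69.2 CPM in ST-HSC and 138, 122.5, 128 and 128 CPM in MPP (change -0.85 ± 0.12, SE, n = 4 per group; edgeR adjusted p = 2.1e-05). Shmt1, which passes serine carbon to folate, read 34.9, 37.9, 38.6 and 33.5 CPM against 62.7, 66.3, 66.5 and 66.4 CPM (change -0.85, edgeR adjusted p = 7.1e-05). The purine synthesis genes Pfas and Gart changed by -0.63 and -0.48 (edgeR adjusted p = 0.00010 and 0.0013), and none of the 4 overlapped. In oxidative phosphorylation 25 of 77 tested genes were called lower (32.5%, against 10.1% of all genes) and none higher, with a median of -0.34. Ndufa4, a cytochrome oxidase subunit, read 148, 127, 131 and 151 CPM in ST-HSC and 271, 250, 266 and 282 CPM in MPP (change -0.94 ± 0.09, SE, n = 4 per group; edgeR adjusted p = 9.7e-08). That change stood apart in size from Atp5b and Atp5a1, the catalytic ATP synthase subunits (-0.38 and -0.33, edgeR adjusted p = 0.00090 and 0.0034), and Sdhb, of succinate dehydrogenase (-0.49, edgeR adjusted p = 0.0032). The count for this list fell to 13, 14 and 16 without MPP replicate 1, MPP replicate 4 and ST-HSC replicate 3.

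In glycolysis and the TCA cycle, 3 of 34 tested genes were called higher and 13 lower, with a median of -0.17. Over all tested genes the shares were 10.5% and 10.1%, so the higher calls were close to that share. The lactate dehydrogenase subunits went in opposite directions. Ldhb, the subunit of oxidative tissues, read 71.8, 62.7, 66.4 and 61.3 CPM in ST-HSC and 30.2, 36.8, 31.0 and 38.2 CPM in MPP (change 0.94 ± 0.12, SE, n = 4 per group; edgeR adjusted p = 4.7e-06). Ldha, the subunit of glycolytic tissues, read 319, 324, 308 and 428 CPM in ST-HSC and 510, 591, 468 and 484 CPM in MPP (change -0.57 ± 0.11, SE, n = 4 per group; edgeR adjusted p = 0.00039). Neither overlapped, though ST-HSC replicate 4 stood high for Ldha. Slc2a3, a glucose transporter, reached 176 ± 15.7 and 109 ± 16.5 CPM (SD, n = 4; change 0.69, edgeR adjusted p = 1.9e-05). Aldoc, a brain-type aldolase and the third member called higher, reached 22.0 ± 4.05 and 11.8 ± 3.31 CPM (SD, n = 4; change 0.90, edgeR adjusted p = 0.043). The Aldoc call was lost in 6 of the 8 fits without 1 library, those without MPP replicate 1, 3 or 4 or ST-HSC replicate 2, 3 or 4 (up to 0.13). Fh1, the fumarase of the TCA cycle, reached 42.0 ± 2.82 and 70.0 ± 6.52 CPM (SD, n = 4; change -0.74, edgeR adjusted p = 3.0e-05).

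Lists of translation differed in their share of calls. Of 25 tested ribosome assembly genes 13 were called lower (against 10.1% of all genes) and none higher, with a median of -0.30. Nop58, a core protein of the RNA-guided methylation complex, read 39.3, 37.0, 40.5 and 35.2 CPM in ST-HSC and 57.9, 61.0, 57.4 and 55.8 CPM in MPP (change -0.61 ± 0.12, SE, n = 4 per group; edgeR adjusted p = 0.00044), without overlap. Dkc1, the pseudouridine synthase (-0.52), and Npm1, nucleophosmin (-0.51), had edgeR adjusted p-values of 0.00057 and 0.00060. Without MPP replicate 1 or ST-HSC replicate 4 the count was 6, and without ST-HSC replicate 1 or 2 it was 8. Of 77 tested mitochondrial ribosome genes 12 were called lower (15.6%, against 10.1% of all genes) and none higher, with a median of -0.25. Mrpl18 (24.3 ± 4.34 and 41.4 ± 4.39 CPM, SD, n = 4; change -0.77, edgeR adjusted p = 0.0018) and Mrpl12 (31.0 ± 2.85 and 46.4 ± 2.12 CPM, SD, n = 4; change -0.58, edgeR adjusted p = 0.0023) led it. Its count was 4 without MPP replicate 1, 6 without ST-HSC replicate 2 or 4 or MPP replicate 4, and 7 without either replicate 3. Of 81 tested cytosolic ribosomal protein genes 9 were called lower (11.1% against 10.1% of all genes) and none higher, with a median of -0.21, and 73 of the 81 values were negative. Rpl4, a large subunit protein, read 1007, 857, 1004 and 947 CPM in ST-HSC and 1279, 1129.8, 1223 and 1316 CPM in MPP (change -0.37, edgeR adjusted p = 0.0015). Pseudogenes of these genes could share their reads, and the count was 4 without ST-HSC replicate 2 and 6 under upper-quartile scaling.

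Lists of immune and stress response had some members called higher. In the interferon response and MHC class I list, 10 of 35 tested members were called higher and 1 lower, with a median of 0.38. Of all tested genes, 10.5% were called higher and 10.1% lower. Ifitm1, an antiviral membrane protein that also marks stem cells, read 153, 160, 184 and 121 CPM in ST-HSC and 60.8, 55.5, 83.3 and 68.3 CPM in MPP (change 1.21 ± 0.19, SE, n = 4 per group; edgeR adjusted p = 9.3e-05). Ddx58, the RNA sensor RIG-I, read 159, 191, 217 and 215 CPM against 128, 117, 130 and 120 CPM (change 0.66, edgeR adjusted p = 9.3e-05). Ifih1, the sensor MDA5, and Parp14, an ADP-ribosyltransferase, changed by 0.52 and 0.37 (edgeR adjusted p = 0.0030 and 0.0051), and none of these 4 overlapped. The 1 lower member was the immunoproteasome subunit Psmb8 (93.4 ± 10.6 and 121 ± 7.81 CPM, SD, n = 4; change -0.37, edgeR adjusted p = 0.025), lost without MPP replicate 3 or 4 or ST-HSC replicate 4 (up to 0.099). Immediate early genes are switched on quickly by stimuli and also by cell handling. Of 34 tested members, 6 were called higher (17.6%, against 10.5% of all genes) and none lower, with a median of 0.47. Ppp1r15a, of the stress response (89.2 ± 19.4 and 48.5 ± 8.74 CPM, SD, n = 4; change 0.88, edgeR adjusted p = 0.0052), did not overlap. Neither did Btg1, an antiproliferative factor (187 ± 15.8 and 130 ± 16.0 CPM, SD, n = 4; change 0.53, edgeR adjusted p = 0.0075), whereas Nr4a2 and Dusp1 did (edgeR adjusted p = 0.0076 and 0.015). The call of Dusp1, a MAP kinase phosphatase, was lost without MPP replicate 1 or ST-HSC replicate 2 or 3 and in the fit to the 8 libraries alone, and the list's count was 3 without MPP replicate 1 or ST-HSC replicate 2.

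Of 30 tested lysosome and autophagy genes 7 were called higher (23.3%, against 10.5% of all genes) and none lower, with a median of 0.14. Map1lc3b, an LC3 protein of the autophagosome, read 113, 119, 112 and 115 CPM in ST-HSC and 92.3, 86.7, 80.2 and 86.5 CPM in MPP (change 0.41, edgeR adjusted p = 0.0012). Ctsl, the protease cathepsin L, reached 13.6 ± 2.01 and 7.41 ± 1.98 CPM (SD, n = 4; change 0.88, edgeR adjusted p = 0.0038), and neither gene overlapped. The count was 4 without MPP replicate 1 or ST-HSC replicate 2. Of 10 tested MHC class II genes 1 was called higher, H2-Aa, an antigen-presenting chain, and 1 lower, H2-Ob, of an inhibitor of peptide loading. These counts are close to the 10.5% higher and 10.1% lower of all tested genes. H2-Ob read 73.8, 70.3, 81.8 and 78.7 CPM in ST-HSC and 117, 142, 111 and 135 CPM in MPP (change -0.73, edgeR adjusted p = 0.0087). H2-Aa read 44.5, 52.4, 17.5 and 31.7 CPM and 11.4, 19.5, 20.0 and 15.7 CPM (change 1.13, edgeR adjusted p = 0.018), with overlap, and its call was lost without ST-HSC replicate 1 or 2 or MPP replicate 1 and in limma-voom. Of 23 tested integrins 4 were called higher and 2 lower (26.1% called, against 20.6% of all genes). Itgal, of the leukocyte integrin LFA-1, read 60.7, 54.3, 80.4 and 82.0 CPM in ST-HSC and 231, 221, 268 and 264 CPM in MPP (change -1.83 ± 0.30, SE, n = 4 per group; edgeR adjusted p = 0.00023). Itga3, of a laminin receptor, read 13.5, 17.6, 15.0 and 8.09 CPM against 5.40, 3.17, 5.96 and 4.10 CPM (change 1.54, edgeR adjusted p = 0.00031), again without overlap.

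Markers of mature cells that a gate could let through were low in all 8 libraries. The 4 hemoglobin genes among them had no count in any library. Mast cell, basophil and eosinophil markers took 0.000211% to 0.000711% of counts in ST-HSC and 0.00209% to 0.0502% in MPP, highest in MPP replicate 3 (exact permutation p = 0.0286, adjusted 0.0857). Cpa3, named above under a rule that asks for groups without overlap, is among these 9 markers, so this test is not separate from that choice. Granulocyte markers reached 0.0294% in ST-HSC replicate 4 and at most 0.00433% elsewhere, and endothelial and stromal markers 0.0620% in MPP replicate 1 and 0.0285% in ST-HSC replicate 4. The granulocyte, endothelial and stromal, T and NK cell, monocyte and macrophage, erythroblast and dendritic cell lists had overlapping groups (exact permutation p from 0.114 to 0.971). The part of such cells in the changes above was not tested.

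The same 2 populations of aged mice gave 4244 calls (29.9% of tested genes), 2196 higher (15.5%) and 2048 lower (14.4%) in ST-HSC, or 2663 and 1625 under upper-quartile scaling. Without young LT-HSC replicate 1 and aged ST-HSC replicates 2 and 3, which stood apart in an earlier look at these data, the aged comparison gave 2698 calls. Of the 2929 young calls, 2114 were also called in the aged mice (72.2% of the young calls and 49.8% of the aged), 2101 of them in the same direction and 13 in the opposite one. The test of the difference between the ages called 66 genes (0.465% of tested genes), 36 of them among the young calls, and 24 genes without those 3 libraries, 25 with the ST-HSC and MPP libraries alone, 18 in limma-voom and 171 in DESeq2. For 4 stem cell genes the population difference was larger in aged mice: the difference between the ages was 0.66 for Mecom, 0.74 for Hlf, 0.95 for Prdm16 and 0.86 for Mmrn1 (edgeR adjusted p = 0.016, 0.016, 0.036 and 0.021). Nbea showed the reverse, with a change of 1.55 in aged mice against 3.41 in young (difference -1.86, edgeR adjusted p = 0.021), aged MPP being at 21.7 ± 7.21 CPM (SD, n = 4). Serpina3f was higher in young ST-HSC (2.56) and stood at -1.33 in aged mice (difference -3.89, edgeR adjusted p = 0.032).

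Among the genes of smallest p in the test of age were Tmem154, Txndc5, Trib1, Xbp1 and Ell2. Txndc5, a folding enzyme of the endoplasmic reticulum, read 80.4 ± 6.16 and 104 ± 11.9 CPM in young ST-HSC and MPP, and 83.7 ± 16.4 and 517 ± 209 CPM in aged ones (SD, n = 4; difference -2.26, edgeR adjusted p = 0.00080). Xbp1, the factor of the unfolded protein response and of antibody secretion, read 64.3 ± 6.78 and 57.0 ± 7.37 CPM in young and 69.2 ± 4.49 and 195 ± 66.5 CPM in aged mice (SD, n = 4; difference -1.67, edgeR adjusted p = 0.0017). Tmem154 (-1.97), Trib1, a pseudokinase (-1.97), and Ell2, an elongation factor of plasma cells (-1.90), differed the same way (edgeR adjusted p = 0.00018, 0.00086 and 0.0063). In these 5 genes the aged MPP mean stood above the other groups of ST-HSC and MPP. B and plasma cell markers moved with them, at 1855 to 9190 summed CPM in aged MPP, 45.3 to 351 in young MPP, 23.3 to 358 in aged ST-HSC and 18.1 to 22.9 in young ST-HSC. The part of such cells was not tested. The mitotic list was lower in ST-HSC at both ages, with 42 calls and a median of -1.86 in young mice and 17 calls and a median of -1.06 in aged ones, and no member passed the test of the difference between the ages. The granule list had 16 calls in young and 7 in aged mice (median -0.76), where aged ST-HSC libraries ranged from 2173 to 5352 summed CPM; none of its members passed the test of age.

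**Figure D4:**
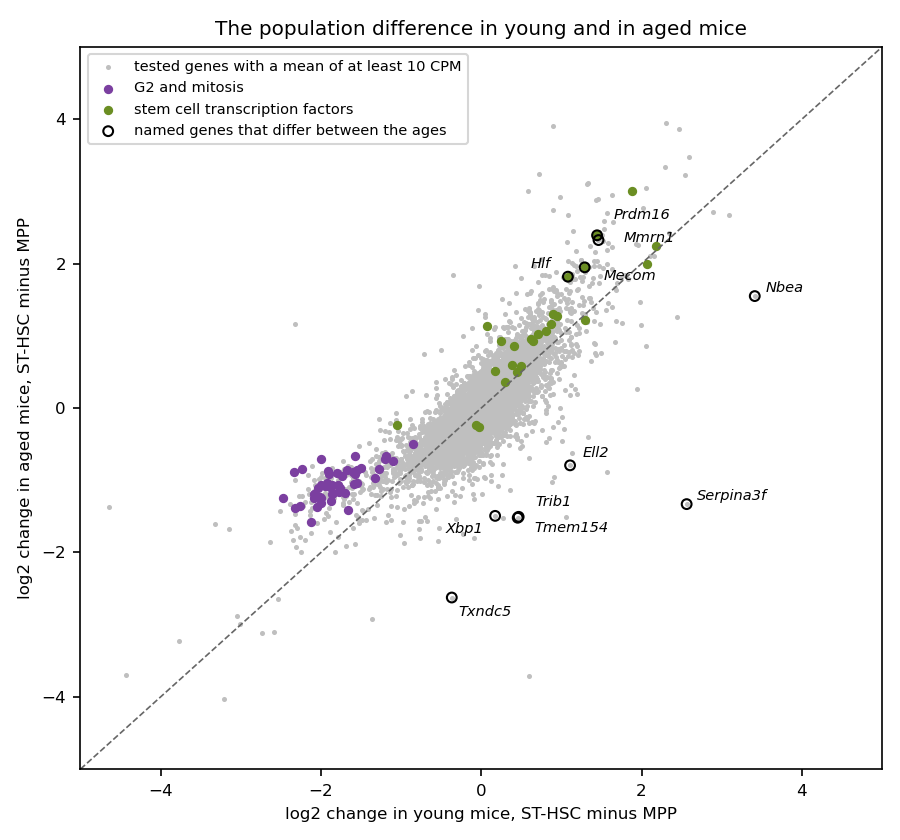
Log2 change of ST-HSC minus MPP in young mice (horizontal) against aged mice (vertical) for tested genes with a mean of at least 10 CPM in the young libraries (grey), mitotic genes (purple) and stem cell transcription factors (green), with rings on the named genes that differ between the ages; the dashed line marks equal change and genes beyond the axes are not shown. Mitotic genes are negative at both ages, while Txndc5 (-0.37 young, -2.62 aged) and Xbp1 (0.17 young, -1.49 aged) lie well below the line.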

How the data were processed

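The deposited table holds raw counts of reads per gene symbol, 24421 lines for 24 libraries, and its whole numbers with unequal column sums show no normalization by the authors. Per the labels' protocols, sorted cells were reverse transcribed with not-so-random primers, the second strand was made with Klenow fragment and libraries with Nextera XT, so reads carry neither strand nor molecular identifiers. The submitters' processing notes name featureCounts, HISAT2, Trim Galore and build mm10. Their versions, the gene annotation and whether counting used strand were not given in the sources used. A spreadsheet had turned 27 symbols into dates (at most 0.192% of a library's counts).

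Counts were analysed with edgeR 4.0.16 in R 4.3.3: filterByExpr kept 14205 genes (99.9% of counts), TMM factors scaled the libraries, and a quasi-likelihood model with 1 mean per group was fitted to all 24 libraries (18 residual degrees of freedom, biological coefficient of variation 0.213), which share 1 estimate of the spread. Contrasts were ST-HSC minus MPP in young mice, in aged mice, and their difference. Tests are 2-sided with Benjamini-Hochberg adjustment over tested genes and a threshold of 0.05. The standard error is the change divided by the square root of the F statistic. Genes at 0 in one group are given as bounds against 3 counts over the group, and genes with 1 to 3 counts as a ratio with its 95% exact binomial interval. Shares of counts in 9 marker lists were compared by exact permutation tests. Since the labels count 4 mice per age, the 4 libraries of a group were treated as 4 mice. Gene positions are from GENCODE M21 and windows from RefSeq GRCm38.p6.

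The comparison, the 22 gene lists, the marker lists and the rule for naming genes were chosen with earlier results of these data known. The rule takes 6 sort genes, the 12 largest changes each way among called genes with at least 10 CPM and no overlap, up to 4 members of smallest p per list, and the 6 genes of smallest p in the age difference; predicted gene models are passed over. A few genes chosen this way are not reported here. The test was checked on simulated data. Alternatives were other scalings, filters and sets of libraries, each library left out, a replicate block, limma-voom (limma 3.58.1) and DESeq2 1.42.0.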

Additional observations from a re-analysis of the deposited data

Results flagged for a closer look

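Of 256 groups of 4 values examined, 20 (7.81%) held 1 library far from the other 3 by Dixon's test at its 95% critical value, where chance alone marks about 1 in 20. Among genes of large change, MPP replicate 2 was high for the channel gene Trpc6 (16.6 CPM, the others 6.27 to 7.81), ST-HSC replicate 4 for Phldb2 (28.8 CPM, the others 16.2 to 16.6), and MPP replicate 1 for the myeloid genes F13a1 (73.6 CPM, the others 1.46 to 8.31) and Irf8 (96.5 CPM, the others 40.7 to 44.5). The only ST-HSC counts of Rag1 were in replicate 1 (0.250 CPM). ST-HSC replicate 3 was high for Hlf (1546 CPM) and low for Atp5b (369.6 CPM) and Itgav (75.9 CPM). ST-HSC replicate 2 was low for Il1r1 (56.3 CPM) and Atp5a1 (471 CPM), and replicate 4 low for Slc2a3 (153 CPM) and high for Ldha (428 CPM, the others 308 to 324). MPP replicate 1 was low for Cd74 (11.3 CPM, the others 55.8 to 57.4) and Shmt1 (62.7 CPM), and MPP replicate 2 for Hist1h2bk (8.71 CPM).

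Among marker shares, B and plasma cell markers stood high in MPP replicate 4 (0.0341% of counts), mast cell, basophil and eosinophil markers in MPP replicate 3 (0.0502%), granulocyte markers in ST-HSC replicate 4 (0.0294%), and endothelial and stromal markers in ST-HSC replicate 4 (0.0285%) and MPP replicate 1 (0.0620%).

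By the interaction test, the ST-HSC minus MPP change differed between aged and young mice (aged minus young, log2) by -1.86 in Nbea, -3.89 in Serpina3f, -1.97 in Tmem154, -2.26 in Txndc5, -1.97 in Trib1, -1.67 in Xbp1 and -1.90 in Ell2. It differed by 0.66 in Mecom, 0.74 in Hlf, 0.95 in Prdm16 and 0.86 in Mmrn1.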

How the results depend on the processing

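Under the 18 alternatives, 95 of the 106 called named genes of the young comparison kept their call in each, 11 lost it in at least 1, none changed sign, and 3 uncalled genes gained a call. Without 1 library the young comparison gave 2263 to 2876 calls. The number of called members ran from 29 to 42 for G2 and mitosis and 11 to 16 for granule and monocyte precursor genes. It ran from 15 to 31 for replication histones, 4 to 12 for ribosomal proteins, 6 to 12 for ribosome assembly, 13 to 30 for oxidative phosphorylation, 4 to 10 for the mitochondrial ribosome, 4 to 9 for lysosome and autophagy, 3 to 8 for immediate early genes and 1 to 3 for MHC class II. With only the libraries of the groups compared (8 in young mice, 16 for the age difference), 19 ribosomal protein genes were called and the age difference had 25 calls. Without young LT-HSC replicate 1 and aged ST-HSC replicates 2 and 3, which stood apart in an earlier look at these data, the counts were 16 and 24, and the aged comparison had 2698 calls. The age difference had 18 calls in limma-voom and 171 in DESeq2. Upper-quartile scaling gave 8 ribosome assembly and 6 mitochondrial ribosome calls, DESeq2 gave 11 lysosome calls, and limma-voom 1 MHC class II call. The cause of these moves was not tested. List medians kept their sign under the scalings, filters and tools tried, except for integrins (0.03), which stood at -0.02 with no count filter and in limma-voom.

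With the replicate number as a replicate block, the young comparison gave 1454 higher and 1629 lower genes, against 1505 and 1709 in the same 8 libraries without it. Ribosomal proteins then had 23 calls, immediate early genes 18, interferon genes 17 and MHC class II 1. Same-numbered ST-HSC and MPP libraries correlated at -0.04, -0.01, 0.07 and 0.05 in their deviations from the group means, and 1 of the 4 correlated best with its own number, so the numbers were not taken as pairs.

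Depth limits genes of few counts: the bounds for genes at 0 in ST-HSC scale with the library totals, and genes such as F13a1, Ctsg and Elane rest on MPP libraries that differ among themselves. Population and CD48 gate are the same thing here and cannot be told apart, and the order and day of sorting are not given in the labels.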

Other observations

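In aged mice, where 14.4% of all tested genes were called lower in ST-HSC, the lists of oxidative metabolism and translation had these counts of members called lower: 52 of 77 for oxidative phosphorylation (median -0.49), 32 of 81 for ribosomal proteins (-0.34), 30 of 77 for the mitochondrial ribosome (-0.41) and 18 of 25 for ribosome assembly (-0.44). Glycolysis and the TCA cycle had 18 of 34. One-carbon and nucleotide synthesis had 16 of 21, the same number as in young mice. No member of these lists passed the test of the difference between the ages. Stem cell transcription factors were called higher for 21 of 25 members (median 1.03), against 18 in young mice (0.64), and 3 members passed that test. Replication histones had 10 calls in aged mice and 29 in young, and no member passed that test. Aged S phase calls numbered 39 of 53 (median -0.81) and lymphoid calls 18 lower and 1 higher (median -1.86).

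Over the 9581 tested genes with a mean of at least 10 CPM in the young libraries, the change in young mice and that in aged mice correlated at r = 0.784, and at 0.567 over all tested genes; this is a correlation across genes, which are not independent replicates.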
